A study of Mus musculus with 9 samples.

Results

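These are the genes whose transcripts were lowered at least 2-fold in wild-type mouse macrophages after 4 h of bacterial lipopolysaccharide (LPS). Where several probe sets measured a gene, the one with the highest average on the 9 arrays was used, and a gene was kept where it reached log2 = 6 on at least 1 array. Of 10032 such genes, 46 (0.459%) had a wild-type 4 h value at least 1 (log2) below the unstimulated value, and 47.8% were below 0 there. Leaving out Rgs2, Pparg, Thbd, Cxcr4, Cnr2 and Abcd2 gave the 40 genes described here. The wild-type 0 h and 4 h arrays are thus the values the genes were selected on, and their wild-type 4 h differences are a description with no test. The 6 arrays of the knockout cells took no part in the choice, apart from the mean that picks a probe set and the filter on low values, and the tests use them alone. All 40 genes reached log2 = 6 on a knockout array.

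Gene expression was measured on Affymetrix arrays in peritoneal macrophages, cells drawn into the abdominal cavity of mice by an injection of thioglycollate. The cells were from wild-type mice, from MyD88-/- mice (MyD88 KO) and from TRIF-/- mice (TRIF KO), and each genotype was left unstimulated or given 100 ng/ml LPS for 1 h or 4 h. There was 1 array for each of the 9 combinations. No genetic background, age or sex is given, and whether arrays of 1 genotype stem from different animals or cultures is not stated. The p-values below therefore rest on how unequally the arrays of the knockouts changed over time. Technical scatter, animals and a true difference in response cannot be told apart in them. The deposited values are log2 expression values made with RMA, and every difference below is a difference of log2 values, in which -1 is a 2-fold lower level.

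LPS is sensed by Toll-like receptor 4, which signals through a pair of adaptor proteins. MyD88 carries the rapid arm that activates NF-kB and MAP kinases, and TRIF carries the arm that activates interferon regulatory factors and a later wave of NF-kB activity. Activated macrophages raise cytokine and antiviral transcripts and at the same time lose transcripts of their resting state, through less transcription and through mRNA decay. The genes lowered here include brakes on G protein signalling, receptors for dying cells and lipids, regulators of the cytoskeleton, growth regulators and enzymes of lipid metabolism.

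In both knockouts, all 40 genes were lower at 4 h than before LPS, but by less than in wild type in nearly every case. The median 4 h difference was -0.47 in MyD88 KO and -0.68 in TRIF KO, against -1.15 in wild type, where it follows from the choice of genes. These medians correspond to levels 27.7%, 37.4% and 54.8% below the unstimulated ones. Over all 10032 genes the medians were -0.04, -0.02 and 0.01. A value below 0 was found for 62.5% of all genes in MyD88 KO, for 55.1% in TRIF KO and for 40.4% in both, and a value of at most -0.5 in both knockouts for 0.389% of all genes and for 18 of the 40.

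A 2-fold fall was rare in the knockouts. In MyD88 KO 0 of the 40 genes reached it, as did 0.00997% of all genes. In TRIF KO it was reached by 1 of the 40, Cd300lf, and by 0.0498% of all genes. At a limit of -0.5 the counts were 19 of 40 in MyD88 KO (0.568% of all genes) and 35 of 40 in TRIF KO (1.05% of all genes). The fall was smaller than in wild type for 40 genes in MyD88 KO and for 39 in TRIF KO. Because the genes were chosen for a large wild-type fall, that gap to wild type was not tested.

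The knockout arrays were fitted with time and genotype in limma, so that MyD88 KO and TRIF KO served as replicates of a time point. At 4 h the transcripts of 33 of the 40 genes fell at a Benjamini-Hochberg adjusted p under 0.05 over all genes, and 0 rose. Of all genes, 2.66% fell and 2.88% rose by the same rule. The 4 h levels of both knockouts lay below all 4 of their 0 h and 1 h levels for 36 of the 40 genes, against 16.8% of all genes. The count of 33 dropped to 20 without the TRIF KO 0 h array, to 10 without the genotype term and to 5 when values under log2 = 6 were raised to it. Raising low values changed no knockout value of the 40 genes themselves, the lowest of which was 6.58, and altered only other genes. The main fit has 2 residual degrees of freedom, and a gene that responds unequally in the knockouts has a larger error in it.

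**Figure D1:**
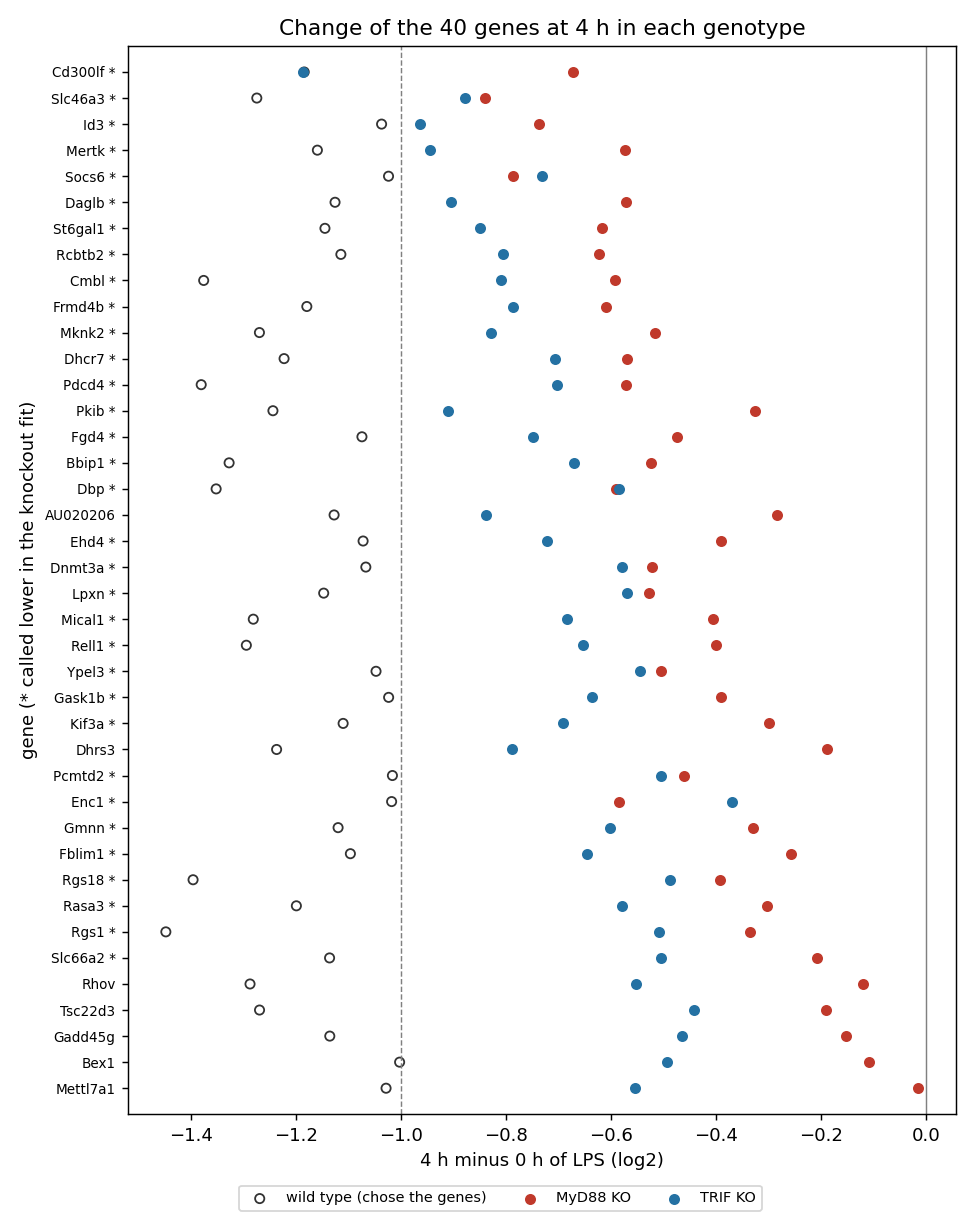
Difference between 4 h and 0 h of LPS (x axis, log2) for each of the 40 genes (y axis), ordered by the mean of the knockouts, with 1 point per genotype and each point a difference of 2 arrays. All red (MyD88 KO) and blue (TRIF KO) points lie below 0, most of them to the right of the dashed line at -1, and the open wild-type points lie at or left of it because they chose the genes.

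The lowest p-value at 4 h belonged to Slc46a3, a transporter of the lysosomal membrane. It read 9.06, 8.81 and 7.79 in wild type at 0, 1 and 4 h, 9.13, 9.11 and 8.29 in MyD88 KO, and 9.12, 9.10 and 8.24 in TRIF KO. Both knockouts stood at nearly the same level at each time and fell alike. Its change in the knockouts was -0.86 ± 0.0638 (SE; limma, Benjamini-Hochberg adjusted p = 0.000276), with a fall in both knockouts. Slc46a3 and Socs6 were the only members called lower under every setting that was run.

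Receptors and glycosylation genes of the cell surface had the largest median fall among the functional groups, with a median knockout change of -0.75 over 4 genes, all 4 called lower. Over all 40 genes the median was -0.55 and 33 were called lower. The groups were made after the members were known, and differences between them were not tested. Cd300lf, an inhibitory receptor that binds membrane lipids, read 10.05, 10.06 and 8.87 in wild type, 10.35, 10.37 and 9.67 in MyD88 KO, and 9.82, 9.86 and 8.64 in TRIF KO. The MyD88 KO array stayed highest at 4 h, and the TRIF KO array ended lowest of all 9. Its 4 h difference was -0.67 in MyD88 KO and -1.19 in TRIF KO, close to the -1.18 of wild type, and the mean change was -0.93 ± 0.121 (SE; limma, Benjamini-Hochberg adjusted p = 0.00379). Mertk, a receptor tyrosine kinase by which macrophages take up dying cells, read 9.22, 9.22 and 8.06 in wild type, 9.19, 9.34 and 8.62 in MyD88 KO, and 9.10, 9.19 and 8.16 in TRIF KO. TRIF KO ended close to wild type, and MyD88 KO lay between that level and the start. The sialyltransferase St6gal1, which caps glycoproteins with sialic acid, read 9.82, 9.82 and 8.68 in wild type, 9.97, 10.001 and 9.35 in MyD88 KO, and 10.09, 10.10 and 9.25 in TRIF KO. It did not move at 1 h in wild type (-0.001) and was within 0.03 of its start in the knockouts. Rell1, a membrane protein related to the TNF receptor family member RELT, changed by -0.40 and -0.65 in MyD88 KO and TRIF KO.

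Regulators of G proteins and small GTPases included both of the largest wild-type falls. Rgs1, which speeds the shutdown of G protein signalling by chemoattractant receptors, read 11.36, 11.37 and 9.91 in wild type, 11.42, 11.48 and 11.09 in MyD88 KO, and 11.43, 11.37 and 10.92 in TRIF KO. The 3 genotypes started within 0.07 of each other, and wild type alone dropped below 10. Its relative Rgs18, found mainly in blood cells, read 7.91, 7.69 and 6.51 in wild type, 7.76, 7.92 and 7.37 in MyD88 KO, and 7.75, 7.96 and 7.26 in TRIF KO. On the chosen probe sets, both changed less in the knockouts than most other members did, by -0.42 and -0.44 on average. Both passed the test (limma, Benjamini-Hochberg adjusted p = 0.0111 and 0.00797). For Rgs18 another probe set gave -0.40 in MyD88 KO and a larger fall, -0.96, in TRIF KO. Of the 6 genes in this group, 5 were called lower. Rcbtb2, a protein with RCC1-like repeats, read 9.34, 9.22 and 8.22 in wild type, 9.66, 9.67 and 9.04 in MyD88 KO, and 9.57, 9.60 and 8.76 in TRIF KO. The knockout changes of Rasa3, an inhibitor of Ras and Rap, were -0.30 and -0.58, and those of Fgd4, an activator of Cdc42, were -0.47 and -0.75. Other Fgd4 probe sets that reached log2 = 6 gave smaller changes, -0.28 and -0.03 for one and -0.002 and 0.12 for another. With the mean of all probe sets, Fgd4 changed by -0.22 and was not called (limma, Benjamini-Hochberg adjusted p = 0.068). Rhov, a small GTPase, did not pass (below).

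Kinases and signalling inhibitors were called lower in 4 of 4 cases. Socs6, a member of the SOCS family of signalling inhibitors, read 9.25, 9.18 and 8.23 in wild type, 9.51, 9.41 and 8.72 in MyD88 KO, and 9.33, 9.27 and 8.60 in TRIF KO. Its change was -0.76 ± 0.0640 (SE; limma, Benjamini-Hochberg adjusted p = 0.000453), slightly larger in MyD88 KO (-0.79) than in TRIF KO (-0.73). Pkib, an inhibitor of protein kinase A, read 8.56, 8.51 and 7.32 in wild type, 8.32, 8.58 and 7.99 in MyD88 KO, and 8.44, 8.58 and 7.53 in TRIF KO. It was lower by -0.91 in TRIF KO and by -0.33 in MyD88 KO. Mknk2, a kinase that phosphorylates the translation factor eIF4E, changed by -0.52 and -0.83 in MyD88 KO and TRIF KO, and Gask1b, a protein of the Golgi, by -0.39 and -0.64.

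Cytoskeletal, adhesion and membrane traffic genes were called lower in 8 of 8 cases. Their median knockout change was -0.55, as it was over all 40 genes, of which 33 were called. Frmd4b, a scaffold protein with a FERM domain, read 7.83, 7.68 and 6.66 in wild type, 8.06, 8.04 and 7.45 in MyD88 KO, and 8.08, 7.91 and 7.29 in TRIF KO. Its knockout arrays started above wild type and stayed above it. Enc1, an actin-binding protein with kelch repeats, read 8.57, 8.58 and 7.56 in wild type, 8.66, 8.40 and 8.07 in MyD88 KO, and 8.54, 8.63 and 8.17 in TRIF KO. It had the smallest fall of the 40 in TRIF KO (-0.37) and a larger one in MyD88 KO (-0.59). The changes in MyD88 KO and TRIF KO were -0.53 and -0.57 for Lpxn, a relative of paxillin, -0.41 and -0.68 for Mical1, which oxidises actin, and -0.39 and -0.72 for Ehd4, which acts in endocytic recycling. They were -0.30 and -0.69 for Kif3a, a kinesin motor subunit, and -0.52 and -0.67 for Bbip1, a subunit of the BBSome complex of cilia. Fblim1 is described with the unstimulated levels.

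Regulators of transcription, chromatin and growth were called lower in 6 of 8 cases. Dbp, a transcription factor of the circadian clock, read 7.43, 6.95 and 6.08 in wild type, 7.17, 7.05 and 6.58 in MyD88 KO, and 7.44, 7.34 and 6.85 in TRIF KO. The knockouts fell by the same amount, -0.59 and -0.58. Pdcd4, an inhibitor of translation initiation, read 7.36, 7.22 and 5.98 in wild type, 7.46, 7.46 and 6.89 in MyD88 KO, and 7.46, 7.24 and 6.76 in TRIF KO. Its wild-type 4 h value was the lowest value of any of the 40 genes on any array. Id3, an inhibitor of helix-loop-helix transcription factors, read 8.29, 8.85 and 7.25 in wild type, 8.38, 8.52 and 7.64 in MyD88 KO, and 8.18, 8.68 and 7.22 in TRIF KO. Its arrays were highest at 1 h in all 3 genotypes and lowest at 4 h, and its 4 h change was -0.74 in MyD88 KO and -0.96 in TRIF KO (limma, Benjamini-Hochberg adjusted p = 0.00524). Dnmt3a, a DNA methyltransferase, changed by -0.52 and -0.58, Ypel3, a growth suppressor, by -0.50 and -0.54, and Gmnn, an inhibitor of DNA replication licensing, by -0.33 and -0.60. The other probe sets of Dnmt3a were divided. Some fell like the chosen one (-0.59 and -0.65, -0.48 and -0.50), and the rest hardly fell (0.23 and -0.06, -0.006 and -0.18).

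Enzymes and transporters were called lower in 5 of 6 cases. Cmbl, a hydrolase, read 8.004, 7.63 and 6.63 in wild type, 7.75, 7.65 and 7.16 in MyD88 KO, and 7.56, 7.40 and 6.75 in TRIF KO. It fell by 0.70 ± 0.0742 on the log2 scale in the knockouts (SE; limma, Benjamini-Hochberg adjusted p = 0.00142). Dhcr7, the enzyme of the last step of cholesterol synthesis, read 8.03, 7.74 and 6.81 in wild type, 8.40, 8.32 and 7.83 in MyD88 KO, and 8.17, 8.08 and 7.46 in TRIF KO. Both knockouts ended well above wild type. Daglb, which makes the endocannabinoid 2-arachidonoylglycerol, read 9.49, 9.31 and 8.37 in wild type, 9.11, 9.14 and 8.54 in MyD88 KO, and 9.68, 9.54 and 8.78 in TRIF KO. The changes of Slc66a2, a transporter-like membrane protein, were -0.21 and -0.50, and it passed the test narrowly (limma, Benjamini-Hochberg adjusted p = 0.0449). The remaining members outside these groups were Pcmtd2, AU020206, Bex1 and Mettl7a1. Pcmtd2 read 7.66, 7.495 and 6.64 in wild type, 7.76, 7.57 and 7.29 in MyD88 KO, and 7.70, 7.61 and 7.19 in TRIF KO, and was called lower.

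The other 7 genes did not pass the test at 4 h, and for all 7 the value in MyD88 KO was the one nearer to 0. The same held for 37 of all 40 genes, and an unequal response in the knockouts itself raises the error of this test. Mettl7a1, a methyltransferase-like protein, read 9.63, 9.36 and 8.60 in wild type, 9.03, 9.38 and 9.01 in MyD88 KO, and 9.13, 9.12 and 8.57 in TRIF KO. Its 4 h difference was -0.02 in MyD88 KO and -0.55 in TRIF KO (limma, Benjamini-Hochberg adjusted p = 0.215 for their mean). MyD88 KO thus ended where it began, while the other genotypes ended at nearly the same low level. Bex1, a small adaptor protein, read 10.13, 9.93 and 9.12 in wild type, 10.10, 10.28 and 9.99 in MyD88 KO, and 9.48, 9.54 and 8.99 in TRIF KO. Rhov read 7.94, 7.501 and 6.66 in wild type, 7.72, 7.69 and 7.60 in MyD88 KO, and 7.69, 7.46 and 7.14 in TRIF KO. The MyD88 KO differences of these last genes were -0.11 and -0.12.

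Gadd45g, a stress-response gene, read 8.95, 8.35 and 7.82 in wild type, 9.02, 9.10 and 8.87 in MyD88 KO, and 8.57, 8.32 and 8.10 in TRIF KO. MyD88 KO stayed within 0.23 of its highest value, while the other genotypes were lower at each later time. Tsc22d3, the glucocorticoid-induced regulator also called GILZ, read 9.79, 9.30 and 8.52 in wild type, 9.60, 9.60 and 9.405 in MyD88 KO, and 9.49, 9.46 and 9.05 in TRIF KO. Dhrs3, a retinaldehyde reductase, read 10.25, 10.03 and 9.01 in wild type, 9.99, 10.40 and 9.80 in MyD88 KO, and 10.18, 10.21 and 9.39 in TRIF KO. Its MyD88 KO array was highest at 1 h. AU020206, a transcript with no role assigned here, read 8.91, 8.92 and 7.78 in wild type, 8.90, 8.87 and 8.62 in MyD88 KO, and 8.70, 8.77 and 7.86 in TRIF KO, and missed the threshold narrowly (limma, Benjamini-Hochberg adjusted p = 0.0557).

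**Figure D2:**
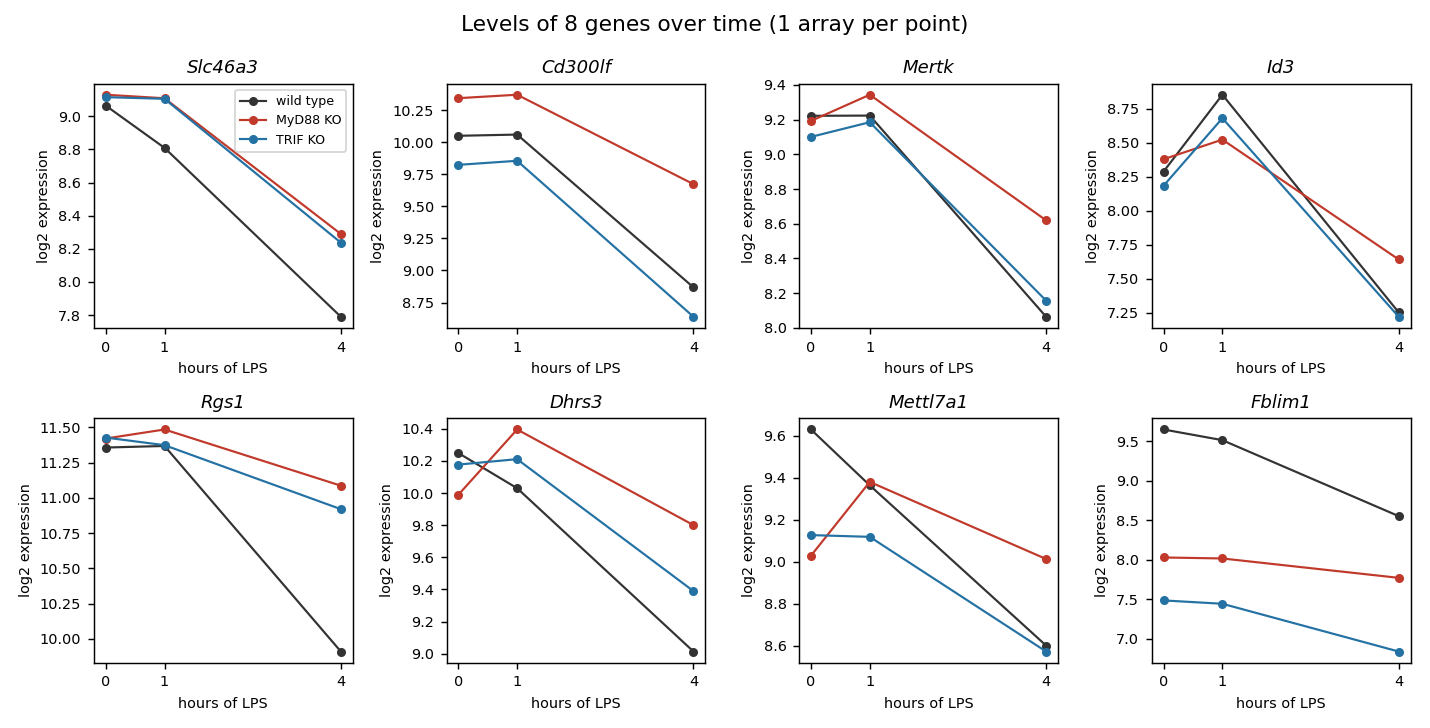
Levels (y axis, log2 expression, a separate scale in each panel) of 8 genes at 0, 1 and 4 h of LPS (x axis) in the 3 genotypes, 1 array per point. Slc46a3 falls alike in both knockouts, Id3 is highest at 1 h, Mettl7a1 in MyD88 KO ends at 9.01 after a start at 9.03, and Fblim1 starts at 9.65 in wild type against 8.03 and 7.49 in the knockouts.

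The fall was larger in TRIF KO than in MyD88 KO for 37 of the 40 genes, against 46.6% of all genes. The median gap, MyD88 KO minus TRIF KO, was 0.25, with a range from -0.22 for Enc1 to 0.60 for Dhrs3. The largest gaps after Dhrs3 were 0.58 for Pkib, 0.55 for AU020206, 0.54 for Mettl7a1 and 0.52 for Cd300lf. Enc1, Socs6 (-0.05) and Dbp (-0.01) had the opposite sign. These gaps are those of the chosen probe sets. A second Pkib probe set gave -0.34 in MyD88 KO and -0.26 in TRIF KO, the reverse order. With 1 array at each time the unequal response of a gene has no error of its own and was not tested. Across the 40 genes, the changes in MyD88 KO and TRIF KO, which share no array, correlated at Pearson's r = 0.52, and across all genes at 0.61. Genes are not independent replicates, and all values share a normalization.

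**Figure D3:**
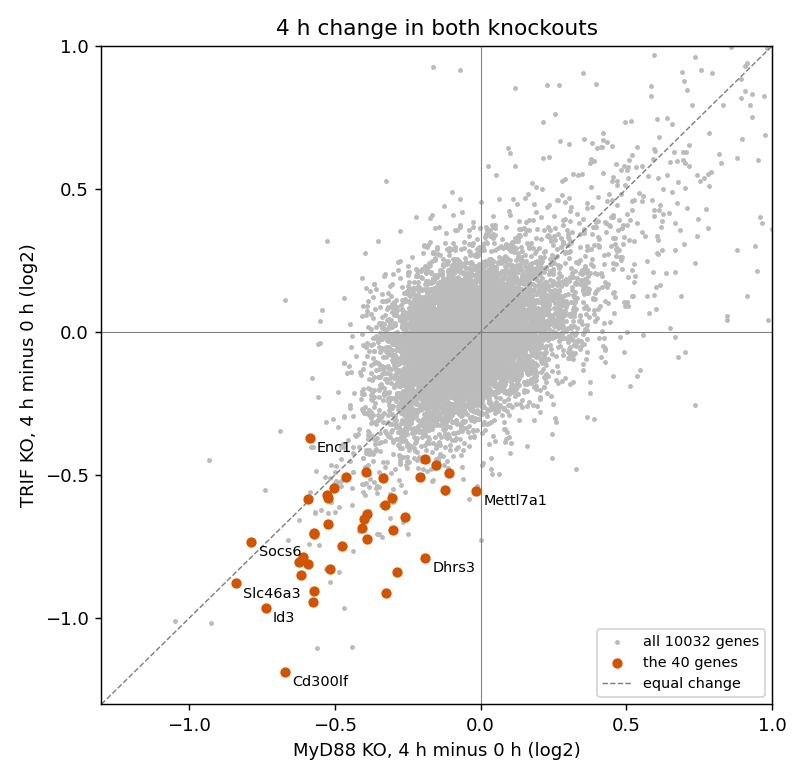
Difference between 4 h and 0 h in MyD88 KO (x axis, log2) and in TRIF KO (y axis, log2) for all 10032 genes (grey) and the 40 genes (orange), with the dashed line marking equal changes. Of the 40 genes, 37 lie below the line, and 61 genes above 1 on either axis fall outside the plot.

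Averaged over the 3 times, 11 of the 40 genes differed between the knockouts. Higher in MyD88 KO were 9 (1.55% of all genes) and lower 2 (2.01% of all genes). The 3 arrays of a knockout served as its replicates here and may stem from 1 animal or culture. Genotype thus cannot be told apart from animal, preparation or genetic background. The average also takes in unequal 4 h falls, as for Cd300lf, whose gap was 0.52 at 0 h and 1.04 at 4 h. Bex1 was higher in MyD88 KO by 0.79 (SE 0.0758; limma, Benjamini-Hochberg adjusted p = 0.00141), at each of the 3 times, Cd300lf by 0.69, Fblim1 by 0.68, Gadd45g by 0.67 and Dnmt3a by 0.34. Dnmt3a read 10.93, 10.80 and 9.87 in wild type, 11.29, 11.22 and 10.77 in MyD88 KO, and 10.96, 10.93 and 10.38 in TRIF KO. Its MyD88 KO arrays lay above the TRIF KO arrays at every time. The pair lower in MyD88 KO was Daglb, at -0.40 (limma, Benjamini-Hochberg adjusted p = 0.0208), and Dbp, at -0.27. This count was 6 without any of the knockout arrays in turn, 5 in a fit of all 9 arrays, and 0 without the time term or with low values raised to log2 = 6.

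At 1 h the genes had hardly moved in the knockouts. Their median difference was 0.03 in MyD88 KO, with 15 of 40 below 0 (58.1% of all genes), and -0.02 in TRIF KO, with 23 of 40 below 0 (47.3% of all genes). A value of at most -0.5 was reached by 0 of the 40 in each knockout (0.0199% of all genes in each). Limma called 0 of the 40 lower and 0 higher, against 0% and 0.12% of all genes. At an unadjusted p under 0.05 stood 3 of the 40, against 7.19% of all genes. All 3 were higher: Id3 by 0.32, Mical1 by 0.24 and Rgs18 by 0.18 in the mean of the knockouts. The lowest means at 1 h were -0.14 for Pcmtd2, -0.13 for Cmbl and for Rhov, and -0.11 for Pdcd4 and for Dbp. Of the 33 genes called lower at 4 h, 26 were within 0.2 of the unstimulated level at 1 h in both knockouts, as were 29 of all 40. The share of all genes within that range was not counted, so this does not set the 40 apart.

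In wild type the 1 h median was -0.15, with 33 of 40 below 0, against 54.9% of all genes. It was -0.02 when the arrays were centred on reference transcripts. These differences share the 0 h array with the choice of genes, so they are a description. A 1 h value of at most -0.5 was found for 1 of the 40, Gadd45g at -0.60 (0.179% of all genes), followed by Tsc22d3 at -0.49, Dbp at -0.48 and Rhov at -0.44. Id3 was highest, at 0.56. It was also higher in TRIF KO, at 0.50, and by 0.14 in MyD88 KO. In all 3 genotypes 12 of the 40 genes were below 0, a count for which the share of all genes was not taken.

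**Figure D4:**
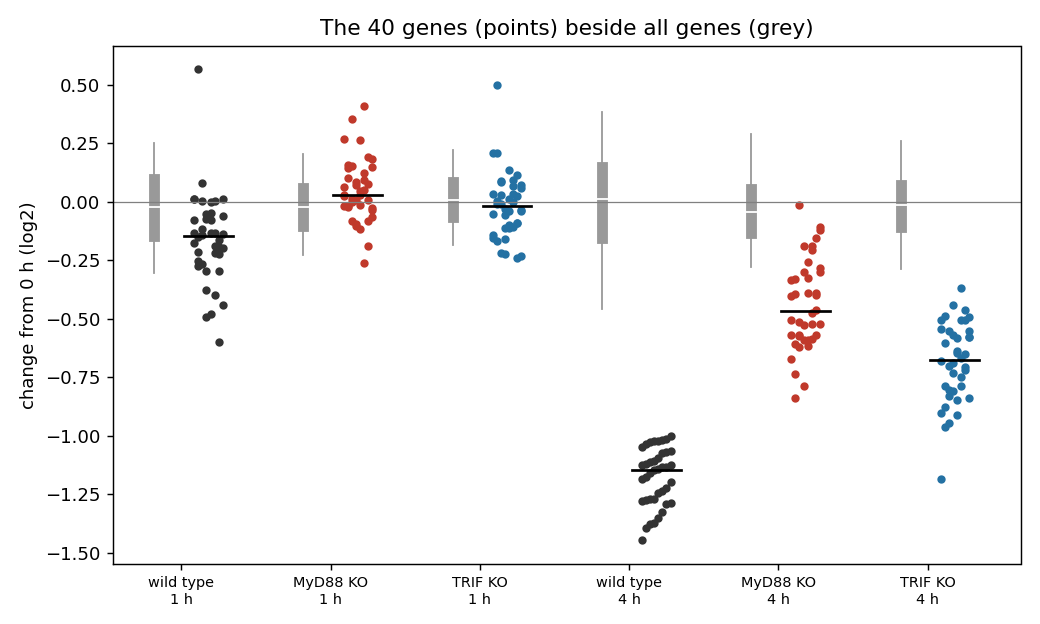
Change from 0 h (y axis, log2) of the 40 genes (points, with the median as a black bar) at 1 h and 4 h in each genotype (x axis), beside all genes in grey, whose thin and thick lines span the percentiles 5 to 95 and 25 to 75. At 1 h the medians are -0.15, 0.03 and -0.02, and at 4 h all points lie below 0 with medians of -1.15, -0.47 and -0.68.

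Before LPS the 40 genes were spread to both sides of the wild-type level in each knockout. The median of MyD88 KO minus wild type was 0.01, with 20 of 40 below 0 (45% of all genes), and that of TRIF KO minus wild type was -0.04, with 21 below 0 (49.5% of all genes). The unstimulated wild-type array also entered the choice of genes. Fblim1, which links filamin to cell adhesions, read 9.65, 9.51 and 8.55 in wild type, 8.03, 8.02 and 7.77 in MyD88 KO, and 7.49, 7.44 and 6.84 in TRIF KO. Even after its wild-type fall, it was higher in wild type than on any knockout array. Its unstimulated differences from wild type were -1.62 (MyD88 KO) and -2.16 (TRIF KO), and with 1 array per group they have no replicate check. The next lowest were -0.65 for Bex1 in TRIF KO and -0.60 for Mettl7a1 in MyD88 KO, and the highest was 0.55, for Mknk2 in MyD88 KO. Mknk2 read 10.25, 10.33 and 8.98 in wild type, 10.80, 10.72 and 10.29 in MyD88 KO, and 10.44, 10.53 and 9.61 in TRIF KO.

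Around the limit of -1, the genes differed little. Just inside were Enc1 at -1.02, Pcmtd2 at -1.02 and Bex1 at -1.002. Just outside were Gyg at -0.997, Tec at -0.996 and Bcar3 at -0.991, with knockout values of -0.31 and -0.57, -0.57 and -0.40, and -0.52 and -0.87 in MyD88 KO and TRIF KO. Of the 5 genes at least 2-fold lower at 4 h in a knockout, Ccr2, the receptor of the monocyte chemokine CCL2, was above the wild-type limit, with -0.70 in wild type and values of -1.05 and -1.01 in the MyD88 and TRIF knockouts.

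For 19 genes there were 31 further probe sets, of which 27, for 17 genes, reached log2 = 6. Of these 27, 18 had a smaller fall than the chosen probe set in MyD88 KO and 22 in TRIF KO. Their 4 h differences were below 0 for 24 of 27 in MyD88 KO (62.5% of all genes) and for 24 of 27 in TRIF KO (55.1% of all genes). The medians were -0.31 and -0.36. In wild type 23 of the 27 were below 0 (47.8% of all genes), with a median of -0.61. The 2-fold wild-type fall by which the chosen probe sets were selected was thus often smaller on other probe sets. A second Enc1 probe set had -0.80 in MyD88 KO and -0.94 in TRIF KO, so the order of the knockouts was turned relative to the chosen probe set. For Tsc22d3, another had -0.57 and -0.74 and the remaining one -0.12 and -0.04. For Mettl7a1, one further probe set gave 0.05 (MyD88 KO) and -0.61 (TRIF KO) and the other -0.21 and 0.20. A second Rgs18 probe set gave -0.40 and -0.96, a wider gap than the chosen one. For Pkib (-0.34 and -0.26) and Kif3a (-0.52 and -0.48) another probe set had the larger fall in MyD88 KO, unlike the chosen one. The order of the knockouts thus varied between probe sets, and the share that kept it was not counted.

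Some members are neighbours in the genome. Rgs1 and Rgs18 lie on chromosome 1 with 1 protein-coding gene between them in RefSeq. Pdcd4 and Bbip1 are adjacent on chromosome 19, on opposite strands, and their gene models overlap there. Their 4 h differences were -0.57 and -0.70 for Pdcd4 and -0.52 and -0.67 for Bbip1 in MyD88 KO and TRIF KO. Whether their probe sets measure separate transcripts cannot be told from the deposited values.

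Promoter windows are shown for 4 members that the results turn on: Slc46a3 for its nearly equal fall in both knockouts, Cd300lf for its 2-fold fall in TRIF KO, Mertk as a receptor that ended near the wild-type level in TRIF KO, and Id3 for its rise before its fall. Each window runs from 250 bases before to 50 bases after a RefSeq transcription start on GRCm38.p6 and is written in the direction of the gene. Capitals mark any match, on either strand, to the motifs searched. These were GAGGAA (the core bound by PU.1, the transcription factor that sets macrophage identity), TATAAA (bound by the general transcription machinery, below called the TATA box), CACGTG (E-box), GGGCGG (GC box), TGANTCA (AP-1), TGACGTCA (CRE), GGANTTTCC (NF-kB-like), GAAANNGAA (interferon-stimulated response element), CTAAAAATA (MEF2-like) and TTGCGCAA (C/EBP-like). In Slc46a3 the capitals are a GC box, in Mertk 4 GC boxes, in Id3 3 PU.1 cores and a stretch where 2 GC boxes overlap. In Cd300lf they are, in order, the interferon-stimulated motif, a PU.1 core, a TATA box and a second PU.1 core.
Slc46a3, chr5:147894766-147895065, minus strand: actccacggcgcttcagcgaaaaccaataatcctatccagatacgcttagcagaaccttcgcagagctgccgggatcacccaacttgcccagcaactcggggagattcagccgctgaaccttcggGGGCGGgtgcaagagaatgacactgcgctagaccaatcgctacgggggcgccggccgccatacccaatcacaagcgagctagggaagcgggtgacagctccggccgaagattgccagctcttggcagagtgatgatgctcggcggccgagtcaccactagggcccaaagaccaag
Cd300lf, chr11:115133943-115134242, minus strand: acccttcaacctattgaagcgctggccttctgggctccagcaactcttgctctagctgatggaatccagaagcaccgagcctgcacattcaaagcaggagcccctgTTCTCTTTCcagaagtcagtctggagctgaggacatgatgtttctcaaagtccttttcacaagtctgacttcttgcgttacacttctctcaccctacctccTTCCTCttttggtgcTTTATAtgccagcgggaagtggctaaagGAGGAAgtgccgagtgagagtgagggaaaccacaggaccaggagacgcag
Mertk, chr2:128698665-128698964, plus strand: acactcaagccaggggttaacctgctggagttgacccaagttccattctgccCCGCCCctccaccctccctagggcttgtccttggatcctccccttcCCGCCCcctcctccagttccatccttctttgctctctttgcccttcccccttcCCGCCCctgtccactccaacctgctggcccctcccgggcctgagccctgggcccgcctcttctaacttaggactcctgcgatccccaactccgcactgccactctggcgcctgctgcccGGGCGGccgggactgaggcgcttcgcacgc
Id3, chr4:136143572-136143871, plus strand: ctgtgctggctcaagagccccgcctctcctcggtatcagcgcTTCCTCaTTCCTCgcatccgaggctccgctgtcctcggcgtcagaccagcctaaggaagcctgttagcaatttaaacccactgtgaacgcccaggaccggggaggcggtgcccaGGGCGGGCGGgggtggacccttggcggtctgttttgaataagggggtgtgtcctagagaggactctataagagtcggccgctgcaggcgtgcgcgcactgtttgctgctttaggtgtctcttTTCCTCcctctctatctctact

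RefSeq windows were found for 32 of the 40 genes, 50 windows in all. The GC box was in 54% of them, against 59.4% of 10336 windows of the analysed genes and 35.7% of all 32851 windows. PU.1 cores were in 32%, against 27.5% and 28.3%, and the AP-1 motif in 12%, against 5.93% and 7.81%. The TATA box was in 12% (8.55% and 13.6%), the E-box in 8% (9.65% and 7.15%) and the interferon-stimulated motif in 6% (6.99% and 8.56%). These shares count windows, and windows of 1 gene can overlap. The AP-1 motif was in 6 windows of 6 genes. The interferon-stimulated motif was in 3 windows of 2 genes, Cd300lf and Dhrs3, and overlapping windows of Dhrs3 hold the same match. In the 50 windows the CRE, NF-kB-like, MEF2-like and C/EBP-like letters had 0 matches, against 2.76%, 1.5%, 0.261% and 0.281% of the windows of analysed genes and 1.79%, 1.25%, 0.517% and 0.183% of all windows. The median number of CpG dinucleotides per window was 14.5, against 19 for analysed genes and 7 for all. A match is a description of letters and not a binding site.

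Related gene lists were counted in the same knockout fit, and some of the genes that fell in them are among the 46 selected on wild type. Of all genes, 2.66% fell and 2.88% rose in this fit. Whether a list differs from these shares was not tested. Of 12 measured regulators of G proteins (RGS, GAP and GEF genes), 4 fell and 0 rose at 4 h in the knockouts by limma. They were Arhgap18 at -0.52, Rgs2 at -0.77, and the members Rgs1 and Rgs18, so that only Arhgap18 lies outside the 46 selected genes. Of 18 chemotactic and other G protein-coupled receptors 5 fell, with Ccr2 at -1.03 and Cnr2 at -0.58, and 2 rose, namely Gpr84 by 2.19 and Fpr2 by 2.19. Of those 5, 2 belong to the 46. Among 23 genes of macrophage identity and growth factor receptors 5 fell, including Mertk and Tgfbr2 (-0.49), and 5 rose, including Cebpb (0.86) and Cd14 (0.49), and 4 of the 5 that fell lie outside the 46. Of 21 lipid and sterol genes 5 fell, including Abcd2 (-0.97), Pparg (-0.68), Daglb (-0.74) and the lysosomal phospholipase Pla2g15 (-0.64), and 3 rose. The first 3 of these are among the 46.

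Of 19 lysosome and endosome genes 2 fell, the selected Slc46a3 and the channel Tpcn1 (-0.52), which was not selected, and 0 rose. Among 17 cell cycle and replication genes 3 fell, Cdt1 (-0.40), Mcm6 (-0.34) and Mcm7 (-0.48), none of them selected, and 1 rose, Mki67 (0.36). In the TLR4 receptor list 2 of 19 fell, including Tlr8 (-0.43), and 4 rose, including Tlr1 (1.04), Tlr2 (1.71) and Cd14 (0.49). The median 4 h differences in MyD88 KO and TRIF KO were -0.18 and -0.25 for the regulators of G proteins, -0.19 and -0.23 for the receptors and -0.05 and -0.07 for the lysosomal genes. By limma 0 of the 10 reference transcripts passed, the lowest unadjusted p being 0.0728 (Sdha). All 8 genes of a list that LPS is known to raise rose in the knockouts, including Ehd1 (1.65), Clec4e (2.64) and Sod2 (1.33). That list was chosen with earlier results of these data known, so its rise is no independent check.

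The preparations carried high macrophage markers, with Lyz2 between 14.42 and 14.53 (log2) and Csf1r between 13.20 and 13.45 on the 9 arrays. Others moved at 4 h. Fcgr1, an Fc receptor, had differences of -0.92, -0.59 and -0.74 in wild type, MyD88 KO and TRIF KO, Mertk of -1.16, -0.57 and -0.94, and Cd14, a co-receptor for LPS, of 1.11, 0.38 and 0.60. The summed linear signal of the 8 macrophage markers, Mertk among them, lay between 52225 and 57256. Markers of B cells (7 of 8 measured, 5 reaching log2 = 6) summed to 887, 794 and 760 in wild type at 0, 1 and 4 h and to between 613 and 667 in the knockouts. Cd79b of this list had a wild-type 4 h difference of -0.95, against -0.002 in MyD88 KO and -0.16 in TRIF KO. It had the lowest wild-type value of the list, in which Pax5 (0.14), Blk (0.11) and Cr2 (0.20) were above 0 and the median of the 5 that reached log2 = 6 was -0.15. Fibroblast markers (7 of 7 measured, 5 reaching log2 = 6) summed to between 653 and 688 in wild type and between 850 and 977 in the knockouts. RMA values have no 0, and the lowest B cell marker was Ebf1, at 4.20 to 4.46. For neutrophil, T or NK cell, eosinophil, mast cell, dendritic cell, mesothelial and erythroid markers the highest sum was at most 1.22 times the lowest. The part of these cells in the results was not tested, and in such bulk samples fewer cells of a type and less RNA per cell cannot be told apart. The targeted gene Myd88 read between 9.19 and 9.34 in MyD88 KO and between 9.54 and 10.002 on the other arrays. Whether its probe set lies in the deleted part is not given, and the gene of TRIF, Ticam1, was not analysed here.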

How the data were processed

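The files hold 22690 probe sets on 9 arrays, as log2 values the authors obtained with RMA, a step named in the submitters' processing notes. RMA corrects for background, equalises the distribution of values between arrays and combines the probes of a set. The sources used here do not give its version or which arrays entered 1 run. Array medians were 7.01 to 7.07. Depth does not apply to arrays, whose number limits the precision.

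Gene names came from GEO's platform table: 20393 had 1 symbol, 691 several and 1606 were not listed. A gene took its probe set with the highest mean, which left 12394 genes, 10032 of them reaching log2 = 6. RefSeq tables (GRCm38.p6) gave current symbols, neighbours and promoters.

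Knockout arrays were fitted with limma 3.58.1 in R 4.3.3 (lmFit and eBayes, no trend, two-sided) on time and genotype without interaction. Residual degrees of freedom were 2 and prior degrees 6.31, and p-values were Benjamini-Hochberg adjusted over 10032 genes (threshold 0.05). On simulated data for 4 h over 10032 genes, it recovered 99% of 100 genes lowered by 0.5 and 100% of 100 lowered by 1, with 15 false calls. The simulated noise was independent and normal, and the change was the same in both knockouts. Genes that respond unequally in the knockouts were thus not examined, nor were false calls under other noise. Differences of 2 arrays have no test.

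The members and the gene lists were chosen with earlier results of these data known, and the functional groups after the members were known. Genes given on every array were the 5 lowest in wild type, the 8 of lowest p at 4 h, the 5 highest in each knockout, the 5 widest gaps between knockouts (3 in the opposite direction), the 5 lowest at 1 h and up to 5 per direction that differed between knockouts. Mertk, Id3 and Mknk2 were added to these after their values were seen. Of each pathway list, up to 4 genes of lowest p that passed the test were named. Alternatives covered the probe set, low values, scaling, filters, the variance prior, the arrays and the model terms.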

Additional observations from a re-analysis of the deposited data

Results flagged for a closer look

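3 members moved in opposite directions at 1 h in different genotypes, each by at least 0.2 (log2), a limit set after the values were seen. These differences rest on 1 array per point and were not tested. Dhrs3 was at -0.22 in wild type, 0.41 with MyD88 absent and 0.0338 with TRIF absent. Mettl7a1 was at -0.27, 0.35 and -0.0084 in the same order. Rgs18 was at -0.21 in wild type and at 0.16 and 0.21 in MyD88 KO and TRIF KO. The wild-type 0 h array belongs to those that chose the genes.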

How the results depend on the processing

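The count of 33 members called lower at 4 h in the knockouts lay between 20 and 40 when each knockout array was left out in turn, with 20 without the TRIF KO 0 h array. It was 10 without the genotype term and 5 with values under log2 = 6 raised to it, where the prior degrees of freedom fell from 6.31 to 1.93. Under the other alternatives on the knockout arrays it lay between 31 and 36. A fit of all 9 arrays gave 40, but holds the wild-type arrays that the genes were selected on. For single members, 457 of 558 alternative values on the knockout arrays kept their side of the threshold, 78 were no longer called, 23 became called and 0 turned direction. The count of 11 that differed between the knockouts was 6 without each knockout array in turn, 5 with all 9 arrays, 0 without the time term and 0 with low values raised. Raising low values changed no knockout value of the 40 genes, the lowest being 6.58 in MyD88 KO and 6.65 in TRIF KO. It altered only other genes in the fit. Why the other counts moved was not tested. With a limit of -0.5 in place of -1, 19 members in MyD88 KO and 35 in TRIF KO passed, in place of 0 and 1. The mean of all probe sets moved the 4 h medians to -0.39 (MyD88 KO) and -0.58 (TRIF KO), and 29 genes then met the rule, 26 of them among the 40. Centring on reference transcripts moved the wild-type 1 h median from -0.15 to -0.0245 and left 32 members. The other alternatives kept 39 or 40 members. No paired analysis was possible because the labels carry no replicate numbers, although the genotype term already compares times within each knockout. Signal over background is not given for these arrays.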

Other observations

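Probe sets that name no single gene held the same pattern in small number. Of those that reached log2 = 6, 3 were at least 2-fold lower at 4 h in wild type, with a median of -1.22. All 3 were below 0 in both knockouts, with medians of -0.34 in MyD88 KO and -0.71 in TRIF KO.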
